A study of Mus musculus with 6 samples.

Results

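The genes described here are the machinery of DNA replication and of mitosis, 55 genes of the 12065 in the deposited expression table of mouse limb bud tips. They were taken by symbol, 31 as S phase genes and 24 as G2/M genes, and all 55 were found. RNA came from the distal tips of limb buds at 37, 38 and 39 somites, with 1 pool of 2 embryos per stage and genotype, so each genotype had 3 libraries. Control embryos were homozygous for R26Meis2a-IRES-EYFP, a Rosa26 transgene that stays silent without Cre. Overexpressing embryos carried the same homozygous transgene together with HoxB6CreER, a tamoxifen-dependent Cre under HoxB6 control. Dams of both genotypes were given 0.8 mg of 4-hydroxytamoxifen at embryonic day 8.3. Because the controls lack Cre, an effect of Cre and one of raised Meis2 cannot be told apart, and the p-values rest on the spread between pools that also differ in stage.

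Before a cell divides it copies its genome. In G1 the origin recognition complex, Cdc6 and Cdt1 load the MCM helicase onto DNA, and cyclins D and E with their kinases release E2F transcription factors that switch on the replication genes. In S phase Cdc45 and the GINS complex activate the helicase, primase and polymerases copy the strands, and the sliding clamp Pcna holds the polymerases in place. In G2 and mitosis cyclin B with Cdk1, the Aurora and Polo kinases, kinesin motors and the anaphase promoting complex build the spindle and part the chromosomes. The transcripts of the mitotic genes are kept low until G2 by DREAM and related complexes that bind CHR elements. Their promoters often hold CCAAT boxes as well. The mesenchyme under the apical ectodermal ridge of the limb bud is a proliferating tissue, and these transcripts are used as a readout of cycling cells in it.

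The promoters of the S phase and the G2/M genes differed in the letters they hold. RefSeq promoters of build GRCm38.p6, 250 bases before to 50 bases after the start, matched 45 of the 55 genes, 24 of S phase and 21 of G2/M, with the first listed promoter used where a gene had more than 1. E2F letters (TTTCGCGC or TTTGGCGC, either strand) stood in 8 of 24 S phase promoters (33.3%) and in 1 of 21 G2/M promoters (4.76%). They stood in 1.74% of the 8391 promoters of genes in the expression table and in 0.833% of all 27025 RefSeq promoters of the same length. CHR letters (TTTGAA, either strand) stood in 3 of 24 S phase promoters (12.5%) and 15 of 21 G2/M promoters (71.4%), beside 11.5% of the table's genes and 18.1% of all promoters. CCAAT, on either strand, stood in 62.5% of the S phase promoters, 90.5% of the G2/M promoters, 39.8% of those of the table's genes and 37.9% of all promoters. All 15 G2/M promoters with CHR letters also held CCAAT, so 71.4% of the 21 held both, beside 5.21% of the table's genes. Of the 964 promoters of the table's genes with CHR letters, 437 also held CCAAT. The place of the CHR letters also differed: 14 of 21 G2/M promoters (66.7%) had a match that began within 50 bases of the start, as did 1 of 24 S phase promoters (4.17%) and 3.04% of the table's genes. A match of letters is a description and not a binding site.

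Promoters are shown for the genes with the most matches in each set. The first pair belong to Mcm6 (chr1:128359656-128359955, minus strand) and Mcm5 (chr8:75109259-75109558, plus strand), subunits of the replicative helicase, with the E2F letters in capitals. In both genes a TTTCGCGC and a TTTGGCGC on opposite strands overlap, and Mcm6 has a further TTTGGCGC that begins 47 bases before the start.
Mcm6: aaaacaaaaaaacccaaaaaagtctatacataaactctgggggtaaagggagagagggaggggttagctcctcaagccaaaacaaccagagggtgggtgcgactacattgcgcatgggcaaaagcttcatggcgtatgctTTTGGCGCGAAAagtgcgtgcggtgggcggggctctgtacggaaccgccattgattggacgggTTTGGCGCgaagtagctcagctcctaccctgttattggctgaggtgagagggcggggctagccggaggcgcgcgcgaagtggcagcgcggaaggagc
Mcm5: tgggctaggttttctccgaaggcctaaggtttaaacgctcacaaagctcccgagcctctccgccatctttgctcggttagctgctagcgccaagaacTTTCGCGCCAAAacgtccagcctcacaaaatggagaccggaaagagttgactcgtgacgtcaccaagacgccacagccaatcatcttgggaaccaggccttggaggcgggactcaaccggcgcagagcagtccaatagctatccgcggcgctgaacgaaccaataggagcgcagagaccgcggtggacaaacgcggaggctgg
The second pair belong to Top2a (chr11:99024140-99024439, minus strand), the topoisomerase that untangles sister chromatids, and Ube2c (chr2:164769679-164769978, plus strand), the ubiquitin-conjugating enzyme of the anaphase promoting complex. Capitals mark CHR letters and CCAAT, read as TTTGAA or TTCAAA and as CCAAT or ATTGG. Each has 6 CCAAT matches and a CHR match close to the start, which begins 23 bases before it in Top2a and 29 bases before it in Ube2c. In Ube2c a CCAAT and an ATTGG overlap.
Top2a: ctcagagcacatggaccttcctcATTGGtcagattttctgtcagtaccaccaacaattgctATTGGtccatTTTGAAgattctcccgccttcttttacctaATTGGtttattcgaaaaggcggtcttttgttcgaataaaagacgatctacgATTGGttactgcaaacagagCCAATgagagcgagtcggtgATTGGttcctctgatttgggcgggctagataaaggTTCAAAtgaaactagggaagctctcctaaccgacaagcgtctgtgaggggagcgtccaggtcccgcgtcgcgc
Ube2c: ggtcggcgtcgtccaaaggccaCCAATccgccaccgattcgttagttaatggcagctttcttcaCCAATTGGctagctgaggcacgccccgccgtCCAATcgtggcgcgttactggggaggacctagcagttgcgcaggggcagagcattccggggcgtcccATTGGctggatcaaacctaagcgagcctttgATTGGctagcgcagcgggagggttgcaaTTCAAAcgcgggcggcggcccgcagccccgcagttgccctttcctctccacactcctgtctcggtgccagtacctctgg

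The markers of cycling cells were abundant in every library. Mki67, the Ki-67 protein that coats mitotic chromosomes, had 956, 948 and 959 CPM (reads of a gene scaled to the authors' effective library size) in controls and 934, 951 and 946 CPM in overexpressing tips at 37, 38 and 39 somites. Top2a had 1285, 1428 and 1359 CPM in controls and 1197, 1147 and 1286 CPM in overexpressing tips. Pcna had 556, 604 and 560.4 CPM in controls and 564, 511 and 541 CPM in overexpressing tips. The genotypes overlapped for all 3 markers, for Top2a by less than 1 CPM. The 31 S phase genes together took 0.612% to 0.637% of the summed CPM of a library and the 24 G2/M genes 0.627% to 0.672%. Depth did not limit their detection, since the member with the fewest reads in a library had 301 to 595 of 7622698 to 15395447 recovered reads.

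Levels within the machinery spanned a wide range when set per length. In controls Pcna stood highest of the S phase genes at 378 CPM per kilobase of the longest annotated transcript, followed by Rrm2 at 202, the small subunit of the ribonucleotide reductase that makes DNA precursors. Gins2, a GINS subunit, was lowest at 12.4 CPM per kilobase, with the transcription factor E2f1 at 14.0 and Orc1 at 15.6. The 6 subunits of the helicase ring lay between 67.2 (Mcm6) and 144 (Mcm7) CPM per kilobase. The licensing genes ran from Orc1 through Cdt1 at 18.8 and Cdc6 at 22.1 to Orc6 at 60.2 and Gmnn, the inhibitor of Cdt1, at 64.7. Of the G2/M genes Top2a was highest at 260 CPM per kilobase, then Ccnb1 (cyclin B1) at 141 and Ccna2 (cyclin A2) at 107, and Nek2, a centrosome kinase, was lowest at 23.4. Of the 3900 bases of the longest Gins2 transcript 2758 overlap Gse1 on the opposite strand. The longest transcript need not be the one these cells make, so the per-length levels are approximate.

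**Figure D1:**
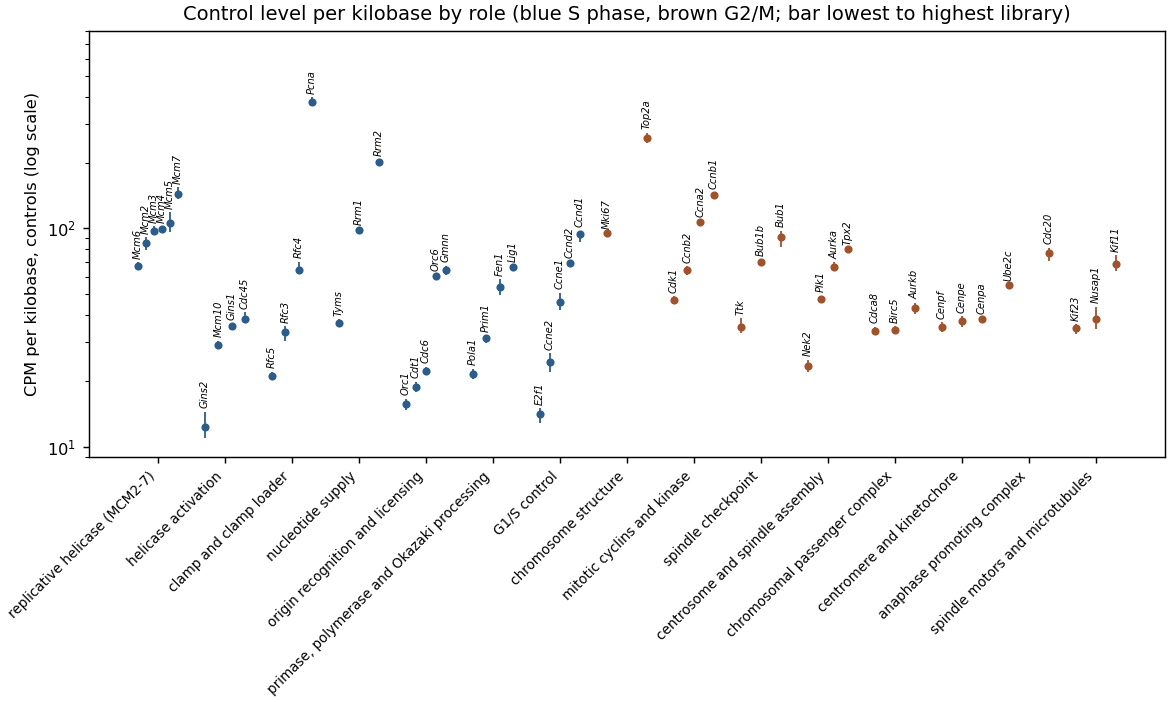
Mean CPM per kilobase of the longest transcript in the 3 controls (log axis) for 55 genes by role, S phase in blue and G2/M in brown, with bars from the lowest to the highest control library. Pcna at 378 and Top2a at 260 stand highest and Gins2 at 12.4 lowest.

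The comparison of genotypes asked whether raised Meis2 moved this machinery in the distal limb. No member passed the test: 0 of 31 S phase and 0 of 24 G2/M genes were called (limma on log2(CPM + 1), Benjamini-Hochberg adjusted p under 0.05 over all 12065 genes), where 177 of all genes, or 1.47%, were called. At an unadjusted p under 0.05 there were 4 S phase and 4 G2/M genes, or 8 of 55, beside 1918 of all genes, and edgeR and DESeq2 on the recovered reads also called 0 of 55. The S phase genes had a median log2 fold change (overexpression minus control) of 0.02, with 17 above and 14 below 0, from -0.18 for Rfc3 to 0.31 for Cdt1. The G2/M genes had a median of -0.01, with 9 above and 15 below 0, from -0.24 for Nusap1 to 0.18 for Plk1. The median of all genes was -0.00012. The genotypes did not overlap in 14 of 55 genes (25.5%), 6 higher and 8 lower in overexpressing tips, beside 20.7% of all genes, of which 10.4% were higher and 10.4% lower.

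In the main fit, which holds no term for GC or stage, the intervals on the bulk RNA of the members were narrow. The 95% interval of the fold change, not adjusted for the number of genes, lay within 1.5-fold in either direction for 55 of 55 members. It did so for 86.0% of all genes and for 97.1% of the 5530 genes with a mean CPM at least that of the lowest member. Within 1.25-fold, a limit chosen after the values were seen, lay 47 of 55 members and 78.1% of those 5530 genes. The median SE of a member's log2 fold change was 0.064. In bulk tissue a change in the number of cycling cells and one in RNA per cell cannot be told apart.

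**Figure D2:**
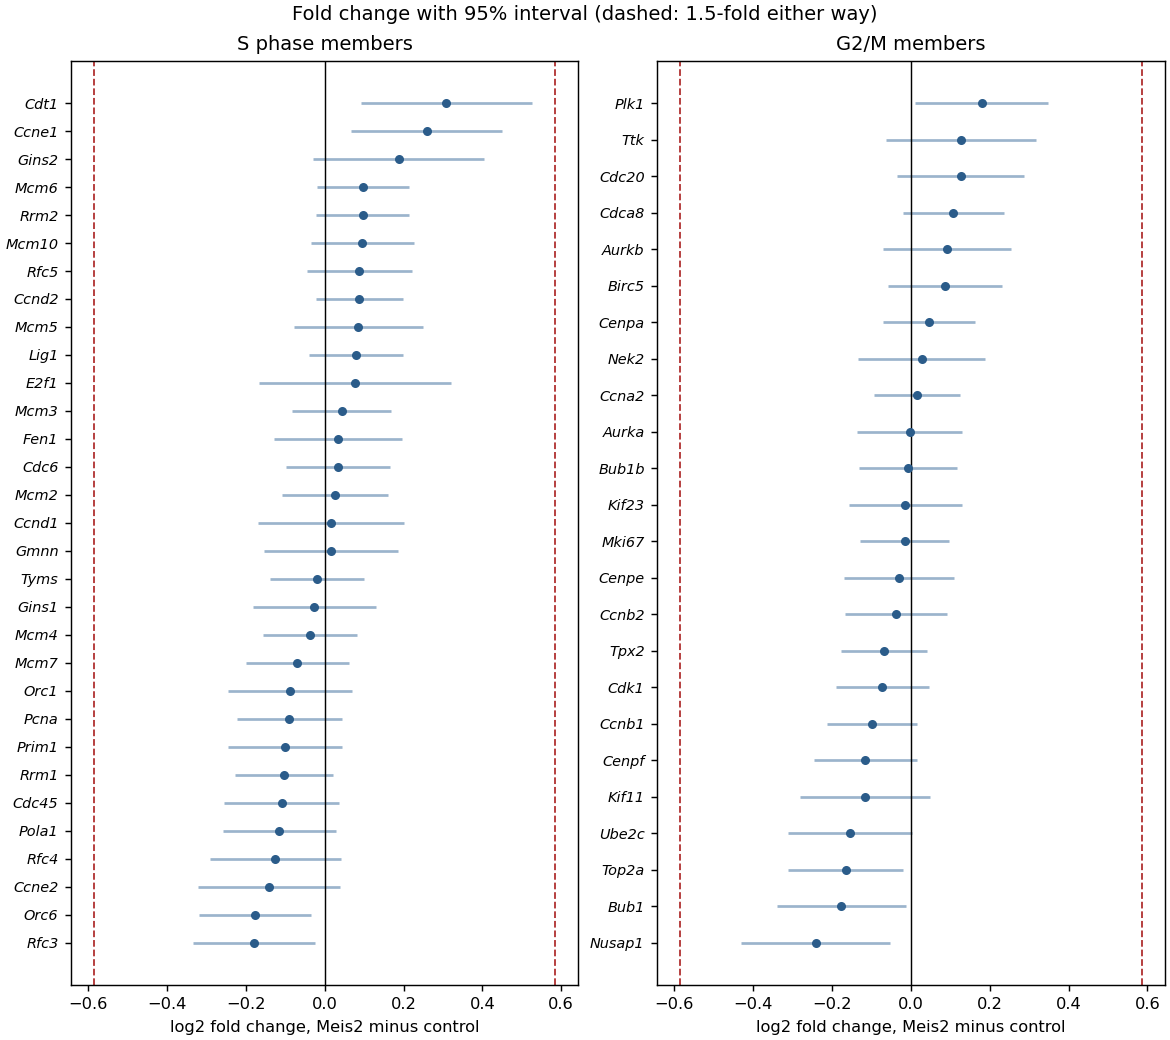
Log2 fold change of each S phase (left) and G2/M (right) gene, overexpression minus control, with its unadjusted 95% interval from limma on 3 libraries per genotype. All 55 intervals lie inside the dashed lines at 1.5-fold.

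**Figure D3:**
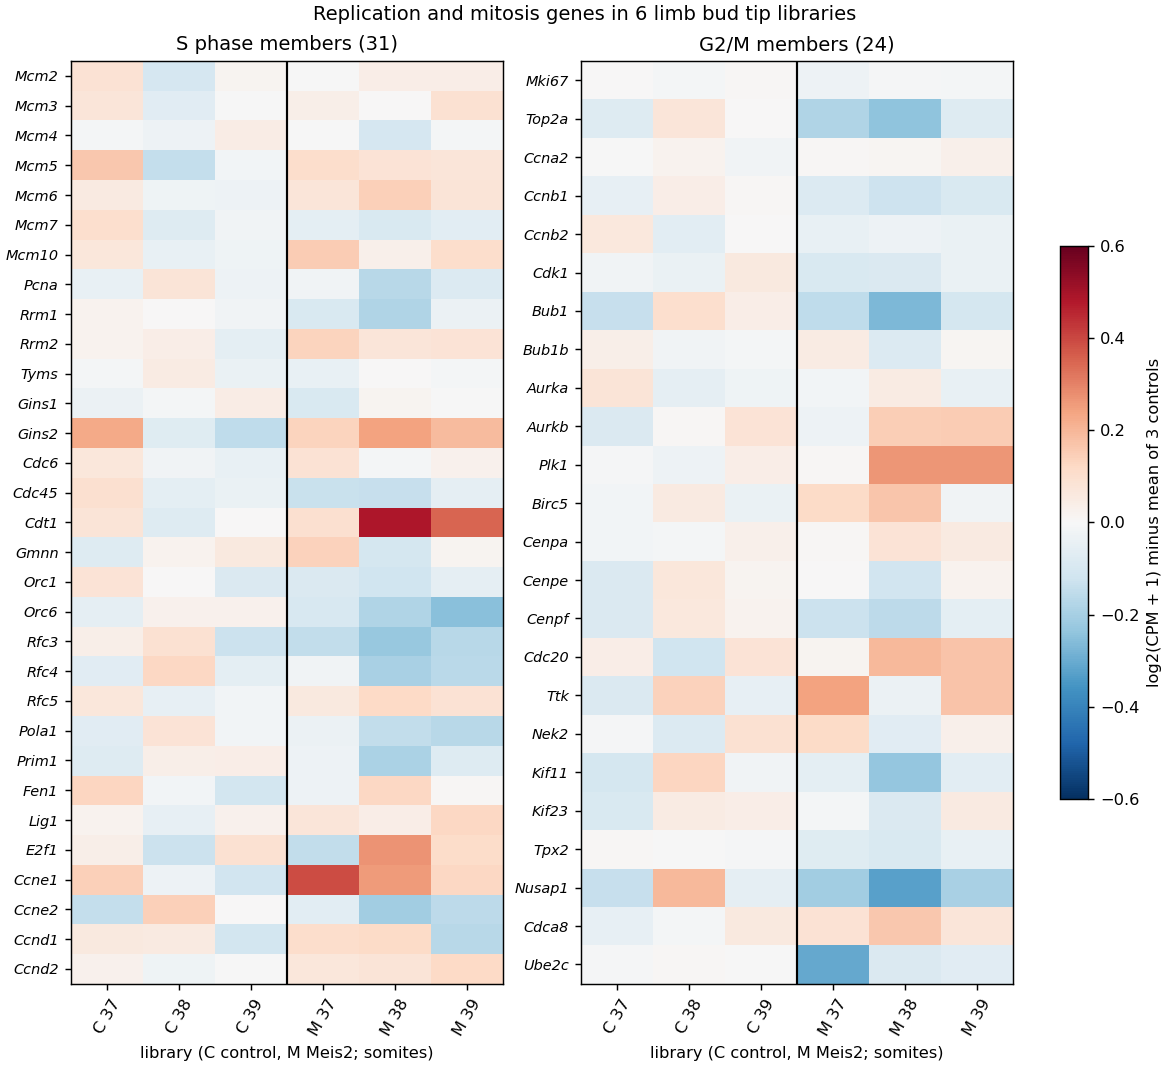
Level of each member in each library as log2(CPM + 1) minus the mean of the 3 controls, S phase genes left and G2/M genes right, with C for control and M for Meis2 overexpression at 37, 38 and 39 somites. Cdt1 and Ccne1 show the highest values in overexpressing libraries and Nusap1 the lowest.

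Among the licensing genes, which load the helicase in G1, values lay on both sides. Cdt1, one of the loading factors, had 53.5, 48.1 and 50.8 CPM in controls and 54.2, 71.3 and 64.9 CPM in overexpressing tips. Every overexpressing library stood above every control, the one at 37 somites by less than 1 CPM. The means were 50.8 ± 2.72 (SD, n = 3) and 63.5 ± 8.63 CPM (n = 3), a log2 difference of 0.31 ± 0.097 (SE) with an adjusted p of 0.167 by limma. Without overexpression replicate 1 it was 0.42, and the adjusted p of 0.0491 then passed. Orc6, the smallest subunit of the origin recognition complex, had 85.0, 89.9 and 89.9 CPM in controls and 82.5, 77.7 and 73.9 CPM in overexpressing tips. All overexpressing values were below all control values, with a log2 difference of -0.18 ± 0.064 and an adjusted p of 0.22 by limma. Orc6 shares exon sequence with Vps35 on the opposite strand, and Gmnn (0.02), Cdc6 (0.03) and Orc1 (-0.09) lay nearer to 0.

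The median size of the log2 difference, without its sign, was 0.056 over the ring subunits of the helicase and 0.10 over its activators. The 6 ring subunits had a median log2 fold change of 0.03, from -0.07 for Mcm7 to 0.10 for Mcm6, and their summed level was 1960.0 to 2181 CPM in controls and 2075 to 2108 CPM in overexpressing tips. Mcm6 was the only ring subunit whose genotypes did not overlap, at 287 to 304 CPM in controls and 307 to 323 CPM in overexpressing tips. Gins2 had 56.3, 45.4 and 42.9 CPM in controls and 52.6, 56.7 and 54.6 CPM in overexpressing tips. The control at 37 somites lay among the overexpressing values, and the difference of 0.19 ± 0.098 had an adjusted p of 0.382 by limma. Without that control it was 0.30, with an adjusted p of 0.113. Mcm10 (0.10), Gins1 (-0.03) and Cdc45 (-0.11) completed the activators.

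The clamp and its loader, which threads Pcna onto DNA, held 1 gene of 4 with separated genotypes, beside 20.7% of all genes. Rfc3, a loader subunit, had 93.5, 97.0 and 83.2 CPM in controls and 82.2, 77.7 and 81.0 CPM in overexpressing tips. The lowest control and the highest overexpressing library differed by about 1 CPM, and the log2 difference of -0.18 ± 0.070 had an adjusted p of 0.254 by limma. The other loader subunits differed in sign, Rfc4 at -0.13 and Rfc5 at 0.09, and both share exon sequence with an opposite-strand gene. Pcna was at -0.09 ± 0.060 (adjusted p = 0.483, limma). The ribonucleotide reductase subunits also differed in sign: Rrm1 had 528 to 544 CPM in controls and 473 to 524 in overexpressing tips, and Rrm2 had 425 to 455 and 466 to 486 CPM. Both pairs of ranges were separate, in opposite directions, at adjusted p-values of 0.401 and 0.403 by limma. Of the polymerase and Okazaki fragment genes Lig1, the DNA ligase, was separated (205 to 216 against 218 to 231 CPM, log2 difference 0.08), and Pola1 (-0.12), Prim1 (-0.10) and Fen1 (0.03) overlapped.

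Of the G1/S cyclins, Ccne1 had the smallest p. Ccne1, cyclin E1, the partner of Cdk2 that drives entry into S phase, had 102, 89.9 and 84.8 CPM in controls and 121, 109.9 and 100.2 CPM in overexpressing tips. The overexpressing library was the higher one at each of the 3 stages, and both genotypes had their lowest value at 39 somites, so the ranges overlapped. The log2 difference was 0.26 ± 0.086 with an adjusted p of 0.188 by limma. With somite number in the fit, where 2.82% of all genes were called, the same difference had an adjusted p of 0.0464 and Ccne1 was the 1 member called. Its paralog Ccne2 lay the other way at -0.14 (adjusted p = 0.424, limma). Ccne2 shares 609 bases of exon with Ints8 on the opposite strand. Ints8 had 151 to 163 CPM in controls and 136 to 142 CPM in overexpressing tips. Ccnd1, cyclin D1, had 365, 363 and 324 CPM in controls and 376, 379 and 312 CPM in overexpressing tips, a difference of 0.02 ± 0.083 whose sign depended on the library left out. Ccnd2, cyclin D2, was separated at 432 to 447 against 461 to 477 CPM, with a log2 difference of 0.09 ± 0.050 and an adjusted p of 0.424 by limma.

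**Figure D4:**
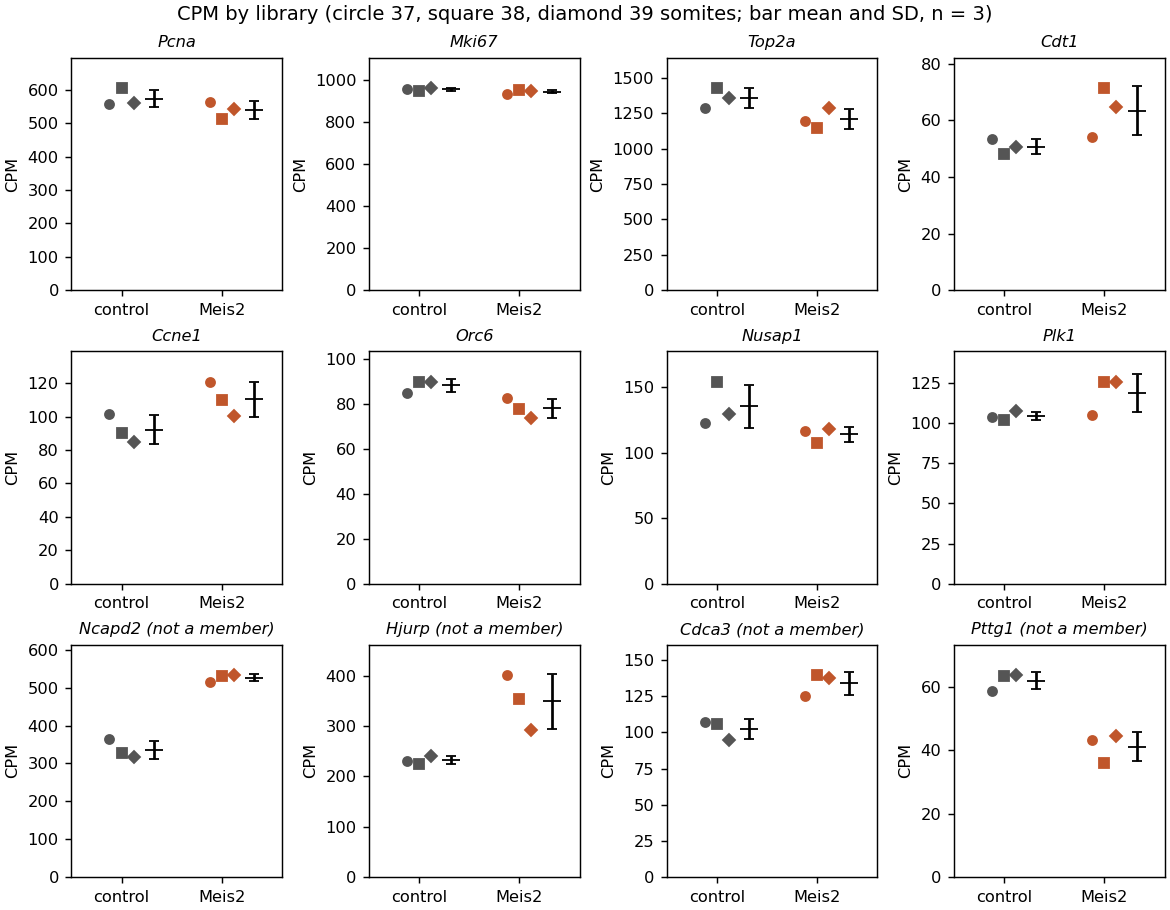
CPM by library for 8 members and, in the bottom row, 4 mitosis genes that are not members, at 37 (circle), 38 (square) and 39 somites (diamond), with the mean and SD of 3 libraries beside them. Each axis starts at 0. Member values differ little between genotypes, while Ncapd2 is 318 to 363 CPM in controls and 515 to 533 CPM in overexpressing tips.

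Of the mitotic genes, those for chromosome structure and for spindle motors and microtubules lay below 0 and those of the passenger complex above. The centrosome and spindle assembly genes had 2 on each side. With a smooth trend on GC subtracted in each library, Mki67 (0.0036) and Kif23 (0.0079) lay above 0. Top2a (-0.11), Nusap1 (-0.17) and Kif11 (-0.05) stayed below 0, and the passenger complex genes stayed above. Nusap1, which bundles spindle microtubules, had 122, 154 and 129 CPM in controls and 116, 107 and 118 CPM in overexpressing tips. All overexpressing values were below all controls, with a log2 difference of -0.24 ± 0.085 and an adjusted p of 0.209 by limma. Without control replicate 2, the highest library, the difference was -0.15 and the genotypes stayed separate. Nusap1 shares exon sequence with Oip5 on the opposite strand. The motors Kif11 (-0.12) and Kif23 (-0.01) overlapped between genotypes. Top2a was at -0.17 ± 0.066 (adjusted p = 0.263, limma) and Mki67 at -0.02 ± 0.050 (adjusted p = 0.902, limma).

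The kinases and checkpoint genes did not share a sign. Bub1, a kinetochore checkpoint kinase, had 282, 333 and 319.7 CPM in controls and 279.7, 257 and 288 CPM in overexpressing tips. The control at 37 somites lay among the overexpressing values, and the log2 difference was -0.18 ± 0.073 with an adjusted p of 0.281 by limma. The other checkpoint genes were Bub1b at -0.01 and Ttk, the Mps1 kinase, at 0.13. Plk1, the Polo-like kinase of mitotic entry, had 104, 102 and 108 CPM in controls and 105, 126 and 126 CPM in overexpressing tips. The libraries at 38 and 39 somites stood above all controls and the one at 37 somites did not, with a log2 difference of 0.18 ± 0.076 and an adjusted p of 0.29 by limma. Nek2 had 75.1, 71.2 and 80.5 CPM in controls and 81.9, 72.0 and 77.2 CPM in overexpressing tips, with full overlap and a difference of 0.03 ± 0.072. Aurka, the Aurora kinase of the centrosome, was at -0.00 (126 ± 6.19 and 126 ± 4.37 CPM, n = 3 each).

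Cyclin B1, Cdk1 and Tpx2 had separate but close ranges in the genotypes. Ccnb1 ranged from 340.5 to 362 CPM in controls and from 323 to 333 CPM in overexpressing tips, Cdk1 from 199.3 to 213 and from 192 to 199.0 CPM, and Tpx2, an activator of Aurora A, from 349 to 352 and from 329 to 339 CPM. In each the ranges were separate, and the log2 differences were -0.10, -0.07 and -0.07 at adjusted p-values of 0.383, 0.526 and 0.515 by limma. Ccna2 (0.02) and Ccnb2 (-0.04) overlapped. All 3 passenger complex genes, which correct chromosome attachment, had a positive difference: Aurkb 0.09, Birc5 (survivin) 0.09 and Cdca8 (borealin) 0.11. Aurkb had 78.9, 84.3 and 89.0 CPM in controls and 82.3, 93.2 and 93.4 CPM in overexpressing tips, and Cdca8 alone of the 3 was separated, at 110.0 to 118 against 119 to 127 CPM. The kinetochore genes Cenpa (0.05), Cenpe (-0.03) and Cenpf (-0.12) overlapped. Of the anaphase promoting complex genes Ube2c was lower in every overexpressing library, at 97.3 to 115 CPM against 119.9 to 121 CPM in controls (log2 difference -0.15 ± 0.071, adjusted p = 0.319, limma). The lowest library was the one at 37 somites, and without it the difference was -0.08. Cdc20, its activator, was at 0.13.

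Summed over each set, the ranges of the genotypes overlapped. Summed G2/M levels were 6409, 6768 and 6644 CPM in controls and 6302, 6191 and 6494 CPM in overexpressing tips at 37, 38 and 39 somites. The overexpressing library was the lower one at each stage, although its value at 39 somites stood above the control at 37. Summed S phase levels were 6401, 6186 and 6131 CPM in controls and 6348, 6193 and 6261 CPM in overexpressing tips, lower at 37 and higher at 38 and 39 somites. The ratio of the S phase to the G2/M sum was 0.999, 0.914 and 0.923 in controls and 1.01, 1.00 and 0.964 in overexpressing tips at 37, 38 and 39 somites. It was higher in the overexpressing library at each stage, and the control at 37 somites lay among the overexpressing values.

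The fold changes of the members ran with the base composition of their transcripts. Across the 55 genes the log2 fold change and the GC content of the longest transcript had a Spearman correlation of 0.63 (0.70 over the 31 S phase and 0.56 over the 24 G2/M genes), beside 0.34 over the 11747 genes of the table with a transcript in GENCODE M21. These points share 6 libraries and are not independent. Of the 18 members with the lowest GC (36.3% to 46.0%) 16 lay below 0, with a median of -0.12, and of the 18 with the highest (50.4% to 58.3%) 15 lay above 0, with a median of 0.08. Within single libraries the deviation of a member from its mean over 6 libraries correlated with GC at 0.27, -0.84 and -0.41 in controls and at -0.03, 0.77 and 0.46 in overexpressing tips, at 37, 38 and 39 somites. Both extremes were the libraries at 38 somites. The control held the highest value of 14 members and the lowest value of 13, and the overexpressing library the highest of 10 and the lowest of 20. When a smooth trend on GC was subtracted in each library, 0 of 55 members were called (11 at an unadjusted p under 0.05, limma), and the fold changes ran from -0.22 for Ube2c to 0.23 for Cdt1. The part of base composition in the differences was not tested beyond this correction.

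**Figure D5:**
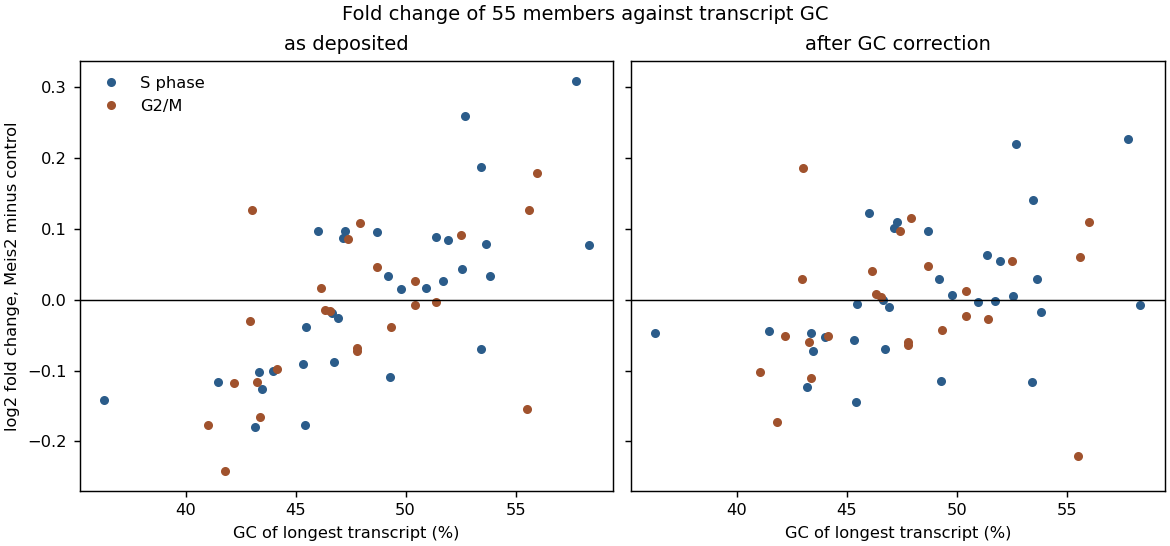
Log2 fold change of each member (overexpression minus control) against the GC content of its longest transcript, from the deposited CPM (left) and after a smooth GC trend was subtracted in each library (right), S phase in blue and G2/M in brown. The Spearman correlation over 55 genes is 0.63 on the left and 0.39 on the right.

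No member passed the test for stage between 37 and 39 somites. In the fit with genotype and somite number 0 of 55 members had a called slope (limma), where 0.356% of all genes did. At an unadjusted p under 0.05 there were 3 members and 758 genes, and edgeR and DESeq2 called 0 members. Ccne1 had the steepest slope, -0.13 ± 0.036 on the log2 scale per somite (adjusted p = 0.293, limma), and was lower at each later stage in both genotypes. Ccnd1 was at -0.11 and had its lowest value at 39 somites in both genotypes, and Aurkb was at 0.09 with its lowest value at 37 somites in both. The median slope was -0.02 over the S phase genes, with 20 of 31 negative. It was 0.02 over the G2/M genes, with 19 of 24 positive. Over all 12065 genes it was -0.0012, with 5942 positive and 6123 negative. The members share 6 libraries, so their signs are not independent. No member showed a slope that differed between genotypes: 0 of 55 were called for the interaction and 0 had an unadjusted p under 0.05 (limma), while of all genes 0% were called and 240 had an unadjusted p under 0.05. By edgeR 0 members were called with 1 at an unadjusted p under 0.05, and by DESeq2 0 with 0. The interaction fit leaves 2 residual degrees of freedom before limma adds those borrowed across genes.

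Related genes outside the 55 were described from wider lists. After the GC correction 1 of 42 other replication genes was called lower by genotype, and 28 lay above and 14 below 0. In the main fit 0 were called (5 at an unadjusted p under 0.05, limma), with 20 above and 22 below 0. The median was -0.0019 in the main fit. The smallest p belonged to Asf1b, a histone chaperone of the replication fork, at 49.0 ± 1.83 CPM (n = 3) in controls and 58.2 ± 0.396 CPM in overexpressing tips (log2 difference 0.24, adjusted p = 0.101), and next was Dut, which clears dUTP, at 0.17 (adjusted p = 0.175). Of 26 further G1/S regulators 0 were called (3 at an unadjusted p under 0.05, limma), with a median of 0.04. The first were Mycn, a Myc family transcription factor, at 0.18 (adjusted p = 0.164) and Ccnd3, cyclin D3, at 0.17 (adjusted p = 0.238). 

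Of 50 other mitosis genes 4 were called, 3 higher and 1 lower, beside 1.47% of all genes. The list's median was -0.06 with 36 of 50 below 0, beside 6037 of all 12065 genes below 0 and a median of -0.00012. Ncapd2, a condensin subunit that compacts mitotic chromosomes, had 363, 327 and 318 CPM in controls and 515, 531 and 533 CPM in overexpressing tips. It rose by 0.65 ± 0.061 on the log2 scale (adjusted p = 0.000585, limma), and it passed in each of the 21 fits. Hjurp, the chaperone that loads Cenpa at centromeres, had 231, 225 and 240.1 CPM in controls and 402, 355 and 292 CPM in overexpressing tips, and rose by 0.58 ± 0.099 (adjusted p = 0.0226, limma). Cdca3, which promotes mitotic entry, rose by 0.39 ± 0.070, from 102 ± 6.83 to 134 ± 7.90 CPM (n = 3 each, adjusted p = 0.0291, limma). Pttg1, the securin that holds back separase, had 58.8, 63.3 and 63.7 CPM in controls and 43.2, 35.9 and 44.4 CPM in overexpressing tips, and fell by 0.58 ± 0.088 (adjusted p = 0.0134, limma). The genotypes were separate in all 4, and none of them has a near-identical copy or an overlapping exon in the table. Cenpa, which Hjurp loads, was at 0.05.
The last 3 calls were lost when single libraries were left out. Hjurp had an adjusted p of 0.0663, 0.0835 or 0.0763 when control replicate 1, 2 or 3 was missing and of 0.0853 when overexpression replicate 2 was. Cdca3 had 0.06 or 0.116 when control replicate 2 or 3 was missing, and 0.114 or 0.0757 when overexpression replicate 2 or 3 was. Pttg1 had 0.0506 or 0.0666 when control replicate 2 or 3 was missing. With robust eBayes and no trend all 3 missed the threshold, at 0.0871, 0.091 and 0.0592.

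The brakes of the cycle were measured in 10 of 14 listed genes, and Cdkn2a, Cdkn2b, Cdkn2c and Gadd45b had no row. No inhibitor was called in the main fit (0 of 10, limma), and their median was -0.17. At an unadjusted p under 0.05 there were 3, beside 1918 of all 12065 genes. Cdkn1a, the p21 inhibitor of cyclin-dependent kinases and a p53 target, had 18.3, 17.2 and 16.6 CPM in controls and 13.9, 12.6 and 11.9 CPM in overexpressing tips. Every overexpressing library was lower, and the log2 difference of -0.41 ± 0.10 had an adjusted p of 0.0780 by limma and of 0.0406 after the GC correction. Ccng1, cyclin G1, also a p53 target, had 52.4 ± 4.07 and 40.0 ± 3.77 CPM (n = 3 each), a log2 difference of -0.38 ± 0.089 with an adjusted p of 0.0705 by limma, of 0.0440 with somite number in the fit and of 0.0282 by DESeq2. No inhibitor was called by edgeR or with any single library left out. Over all genes 177 were called in the main fit, 313 after the GC correction, 340 with somite number and 290 by DESeq2.

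Meis2 itself, the raised gene, had 20.6, 15.3 and 13.8 CPM in controls and 41.3, 33.4 and 28.2 CPM in overexpressing tips, a rise of 1.01 ± 0.162 on the log2 scale (adjusted p = 0.0185, limma). This call was lost when control replicate 2 (adjusted p = 0.0681), control replicate 3 (0.0693) or overexpression replicate 2 (0.0651) was left out, and with robust eBayes and no trend (0.0676). For Meis2 every overexpressing library stood above every control. With somite number in the fit its adjusted p was 0.00019 by limma. Marker transcripts of other cell types also differed between the genotypes, in a main fit that called 1.47% of all genes. Of 20 ectoderm markers 8 fell and 12 did not pass (limma), and all 20 had a negative difference, with sums of 733 to 778 CPM in controls and 514 to 569 CPM in overexpressing tips. Of 14 erythroid markers 3 rose and 11 did not pass, and all 14 had a positive difference, with sums of 2586 to 3770.0 and 4413 to 5247 CPM. Of 14 endothelial markers 1 rose, Kdr, and 13 did not pass, and all 14 had a positive difference, with sums of 279.9 to 319 and 358 to 377 CPM. With control replicate 1, 2 or 3 left out the called ectoderm, erythroid and endothelial markers numbered 4, 4 and 0, then 3, 1 and 0, then 2, 0 and 1. With overexpression replicate 1, 2 or 3 left out they numbered 6, 4 and 0, then 2, 0 and 0, then 5, 1 and 1. Over all genes the counts of calls were 138, 90 and 64 without control replicate 1, 2 or 3. These counts were 115, 56 and 162 without overexpression replicate 1, 2 or 3. Of 13 limb mesenchyme markers 0 were called by limma, with 6 at an unadjusted p under 0.05, beside 1918 of all 12065 genes. By edgeR 0 and by DESeq2 2 of these markers were called, beside 171 and 290 of all genes. In the main fit 8 of the 13 markers had a positive and 5 a negative difference, and their median was 0.08. Their sums of 1848 to 2177 and 1718 to 2034 CPM join differences of both signs, such as Prrx1 at 0.37 and Hoxd13, named after its values were seen, at -0.74. No marker of the 4 lists was at 0 in any library. Whether the cell makeup of the tips differed was not measured, and the part of these marker differences in the members' values was not tested.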

How the data were processed

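The table holds, for 12065 genes, deposited CPM values that the authors scaled to effective library sizes; per the submitters' processing notes cutadapt 1.2.1, RSEM 1.17 and edgeR (version not given in the sources used here) were used with build NCBIM37. Per the labels' protocols, polyA RNA was made into TruSeq v2 libraries. Whether counting used strand is not given in the sources used here, and 13 members share at least 100 bases of exon with a gene on the opposite strand. The deposited CPM were whole multiples of 1 step per library (100% within 0.001 of a whole read in each of the 6), which gave 10605770, 11542191 and 8362853 recovered reads in controls 1 to 3 and 10741409, 7622698 and 15395447 in overexpressing libraries 1 to 3. The third-highest value was at least 2.00 CPM in every gene, so the filter of 1 CPM in 3 libraries removed 0 genes.

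The genotype test was limma's moderated test with a trend (limma 3.58.1, R 4.3.3) on log2(CPM + 1), two-sided, adjusted by Benjamini-Hochberg over all genes, threshold 0.05. An exact test of 3 against 3 libraries cannot give a p below 0.1. edgeR 4.0.16 and DESeq2 1.42.0 were alternatives on the recovered reads. Members called by genotype, the somite slope and the interaction were counted for S phase and G2/M genes apart. Transcript length, GC, exon overlap and copies (blastn 2.17.0, at least 97% identity) came from GENCODE M21. The members and lists were chosen with earlier results of these data known. Members were named by smallest p, highest and lowest fold change and level, and for each other list up to 4 called genes a direction or else the 2 with the smallest p; the genes with separated genotypes were added after their values were seen. The fits were run on simulated counts drawn without a GC trend, which do not show how the fits hold where libraries differ by GC.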

Additional observations from a re-analysis of the deposited data

How the results depend on the processing

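The count of called S phase members was 1 with somite number as a covariate (Ccne1) and ranged from 0 to 1 when each library was left out in turn, the 1 being Cdt1 without overexpression replicate 1. No G2/M member was called in any of the 21 fits by genotype, and 42 of the 55 members kept the sign of their difference in all of them. The median of the S phase genes was -0.0036 after the GC correction and -0.010 to 0.046 when libraries were left out, beside a spread of 0.019 between libraries. Of 700 alternatives for the single genes named by the rules above 7 changed sign, and the cause was not tested. Mki67 was 0.0036 and Ccnd1 -0.0036 after the GC correction. When libraries were left out Ccnd1 ranged from -0.040 to 0.108 and Nek2 from -0.018 to 0.074. Members outside those rules are not in this count: Aurka kept its sign in 16 of 21 fits, and Bub1b and Kif23 in 17. With the replicate block 0 S phase and 0 G2/M members were called, with medians of 0.02 and -0.01, and 258 of all genes (243 by edgeR with the block) against 177. Same-numbered libraries correlated at 0.03, -0.15 and 0.38 in their deviations from the group means and only pair 3 matched best with its own number, so the numbers were not taken as pairs; no block could be fitted for the slope, since number and stage coincide. Over all genes 56 to 162 were called when libraries were left out, 86 with robust eBayes and no trend, 290 by DESeq2, 313 after the GC correction and 340 with somite number. The GC correction, the block in edgeR and the members without exon overlap were added after the data were seen.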
